A study of Homo sapiens with 6 samples.

Results

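Polyamine synthesis, its antizymes and the methionine salvage route were followed through 10 genes, chosen by name as rows of the gene table: SRM, SMS, AMD1, ODC1, OAZ1, OAZ2, AZIN1, MTAP, MAT2A and ARG2. All 10 were found among the 63241 genes of the table, and 9 of them, all but MTAP, averaged 1 TPM or more and were tested, as part of 12999 tested genes in all. The cells were of the human line MDA-MB-231, from a triple-negative breast cancer, and RNA was sequenced from 3 non-treated control libraries and 3 libraries of cells given 40 µM of ArA and cultured for 24 h. ArA stands for arachidonic acid in the study's title, which also names spermidine synthase, the product of SRM, as a protein secreted from the tumor upon irradiation. No library is labelled as irradiated, the control cells have no named vehicle, and the values describe RNA inside the cells, not secreted protein. TPM gives a gene's transcripts per length as a share of all transcripts in a library, so levels can be set side by side between genes, but the depth of sequencing cannot be read from it, and a change in a share cannot be told apart from a change in RNA per cell. Whether replicates were separate cultures is not stated, so p-values reflect the variation among these 6 libraries, part or all of which may be technical.

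Polyamines are small, positively charged amines that bind RNA and DNA and are needed for growth. Arginase releases ornithine from arginine, ornithine decarboxylase (ODC1) turns ornithine into putrescine, and the synthases SRM and SMS add aminopropyl groups to make spermidine and then spermine. The aminopropyl donor is decarboxylated S-adenosylmethionine, supplied by MAT2A and AMD1 in turn, and each transfer leaves methylthioadenosine, which MTAP starts to recycle into methionine. Antizymes (OAZ1, OAZ2) bind ODC1 protein and send it to the proteasome, and the antizyme inhibitor AZIN1, a relative of ODC1 without its activity, ties the antizymes up.

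The antizyme transcripts carry a stop codon inside the coding region, which ribosomes pass by slipping forward by a base when polyamines are plentiful, so that antizyme protein depends on this site as well as on RNA level. The stretch around it is shown for the antizyme pair because their RNA levels, given further on, do not report this step. Both were read from GENCODE v29 transcripts on hg38, and the capitals mark the slippery codon with the stop codon after it. The OAZ1 stretch lies on the forward strand at chr19:2271416-2271469, in exon 2 of a protein-coding transcript, and the OAZ2 stretch on the reverse strand at chr15:64691489-64691542, in exon 2 of a processed transcript. Of the 54 bases, 44 are the same in both genes, and 27 of these form an unbroken run that holds the site.
OAZ1: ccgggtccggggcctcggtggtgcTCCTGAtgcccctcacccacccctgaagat
OAZ2: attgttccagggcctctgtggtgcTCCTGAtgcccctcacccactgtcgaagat

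ODC1 and SRM are textbook targets of the transcription factor MYC, which binds the E-box CACGTG, a motif that reads the same on both strands. Of the 10 genes, 9 had a start in the RefSeq promoter table (GRCh38.p14), all but AZIN1. In the 250 bases before a start, the E-box was found for 2 of them, SRM and ODC1. It stood before 1 of the 2 listed ODC1 starts. Counted by start, 2 of the 12 listed starts of these genes had it, beside 6.34% of all 35116 listed starts. The stretch before the SRM start and 30 bases around the ODC1 E-box are shown because the values of MYC, ODC1 and SRM are set side by side below. The capitals mark the E-box, which begins 199 bases before the start in SRM (reverse strand, chr1:11060019-11060268) and 29 bases before it in ODC1 (reverse strand, 30 bases at chr2:10448024-10448053). Both listed ODC1 starts lie inside the annotated gene. These 30 bases fall in the first intron of the gene's longest GENCODE v29 transcript. The window before the other listed start, farther upstream, had no E-box. A match describes letters in this window and is not a measurement of binding.
SRM: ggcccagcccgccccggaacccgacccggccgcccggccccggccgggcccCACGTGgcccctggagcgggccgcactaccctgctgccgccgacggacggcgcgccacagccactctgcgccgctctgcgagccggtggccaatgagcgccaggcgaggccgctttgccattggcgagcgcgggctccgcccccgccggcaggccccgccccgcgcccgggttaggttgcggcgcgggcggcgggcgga
ODC1: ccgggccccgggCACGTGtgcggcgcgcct

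Markers of the labelled line were read first. The mesenchymal markers LGALS1 and VIM had mean levels of 3545 and 1389 TPM in control libraries, PGR was listed at 0 in all 6 libraries, ESR1 reached at most 0.03 TPM and CDH1 at most 0.17 TPM. The other 6 of the 9 listed luminal or epithelial markers were above 1 TPM in control libraries: the keratins KRT8, KRT18 and KRT19 averaged 384, 290 and 189 TPM, ERBB2 35.7 TPM, EPCAM 5.49 TPM and GATA3 3.37 TPM. The summed level of 9 blood, fibroblast and muscle markers was 11.65 to 13.1 TPM without ArA and 10.45 to 15.07 TPM with it, with HBB listed at 0 throughout, and COL1A1 and PDGFRB were its highest genes. Transcripts of the mitochondrial genome made up 26.9 to 32.9% of TPM. Control replicate 2 and ArA replicate 1 stood apart from the other 4 libraries: across 12637 genes, the deviation of a gene from its mean correlated with the GC content of its transcript at Spearman 0.642 and 0.559 in these libraries and at -0.594 to -0.219 in the others. Genes are not independent replicates, and the coefficients are descriptions.

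Of the 10 genes, MTAP alone was listed at or near 0 in every library. OAZ1 was by far the most abundant of the 10 transcripts, with a mean of 914 TPM over the 6 libraries, rank 143 of the 12999 tested genes, followed by OAZ2 at 183 TPM. MAT2A (119.7 TPM), SMS (107 TPM) and ODC1 (99.9 TPM) came next, then AZIN1 (66.8 TPM), SRM (65.9 TPM), AMD1 (29.3 TPM) and ARG2 (11.8 TPM, rank 6387). The ranges over 6 libraries overlapped between MAT2A and SMS, between SMS and ODC1, and between AZIN1 and SRM, so the order of these neighbours is not settled by the ranges; all other neighbours had ranges that did not meet. Within libraries, MAT2A was above SMS in 6 of 6, SMS above ODC1 in 4 of 6 and AZIN1 above SRM in 4 of 6. For SMS with ODC1 and for AZIN1 with SRM, the exceptions were control replicate 2 and ArA replicate 1. These are the libraries set apart above by their trend with GC content.

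**Figure D1:**
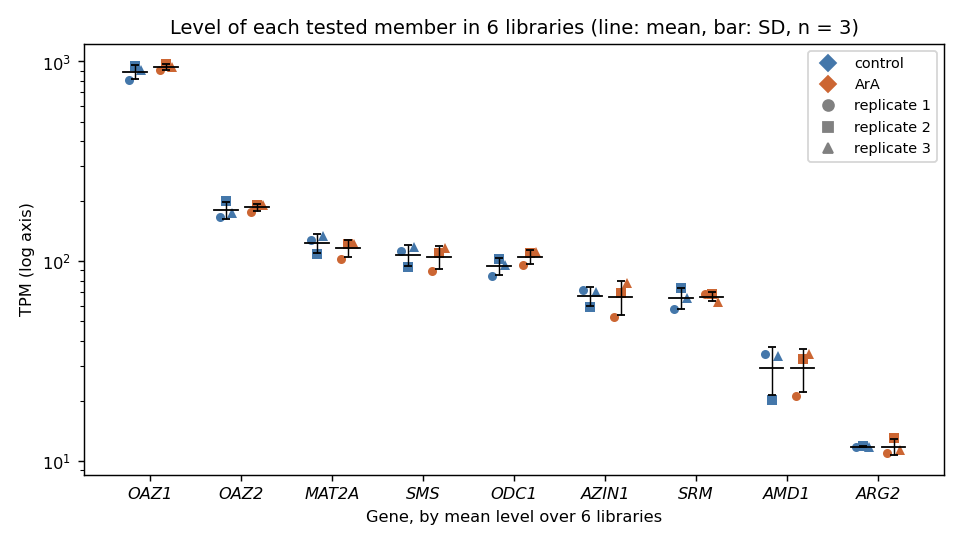
Level in TPM (log axis) of the 9 tested genes in 3 control (blue) and 3 ArA (orange) libraries; marker shape gives the replicate number, the line the group mean and the bar the SD. OAZ1 lies near 914 TPM and ARG2 near 11.8 TPM, and for every gene the orange points overlap the blue ones.

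For none of the 9 tested genes was a difference between ArA and control libraries detected beyond the spread between replicates. In the limma fit on log2(TPM + 1), 0 of 9 passed an adjusted p of 0.05 and 0 had an unadjusted p under 0.05, against 0.0231% of all tested genes past the adjusted threshold (3 genes) and 2.78% under the unadjusted one. In no member did the 3 ArA values lie wholly above or wholly below the 3 control values, which held for 8.05% of tested genes. Log2 fold changes were positive for 5 members and negative for 4, from -0.09 to 0.16, with a median of 0.0037 against 0.056 over all tested genes, of which 68.9% were positive. With TPM scaled by median of ratios, by quantiles or without mitochondrially encoded genes, 2 of the 9 were positive and the members' median was -0.05, -0.06 and -0.06, against 0.0089, 0.0053 and -0.0021 over all tested genes. Adjusted p was 0.999 for each of the 9.

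**Figure D2:**
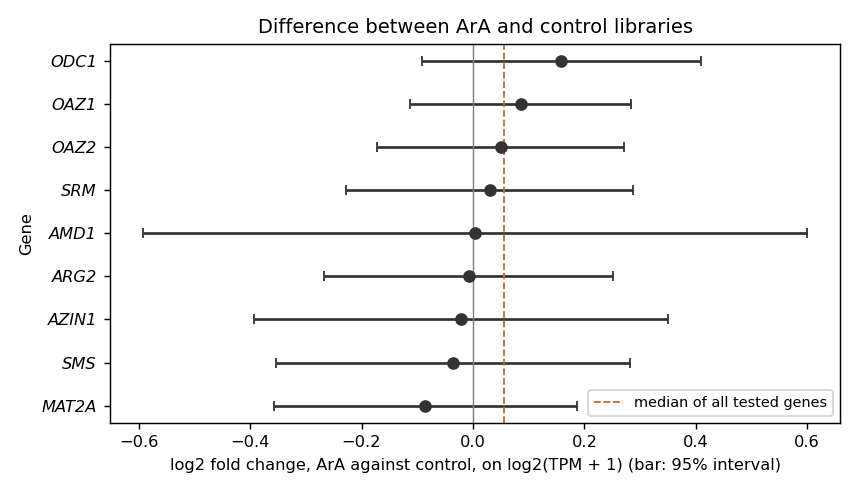
Log2 fold change of ArA against control on log2(TPM + 1) for the 9 tested genes, with 95% intervals from limma (3 libraries per group); the dashed line is the median of all tested genes, 0.06. All 9 intervals include 0; that of AMD1 is the widest, from -0.59 to 0.60.

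Ornithine supply and its decarboxylation come first. ARG2, the mitochondrial arginase (chr14:67619798-67651720, forward strand), had 11.7, 11.92 and 11.81 TPM in control replicates 1, 2 and 3 and 10.96, 13 and 11.35 TPM in ArA replicates 1, 2 and 3. The control values lie inside the range of the ArA values, and the control SD of 0.110 TPM was the smallest relative spread among the 9 genes. The fold difference of means was 0.997, with a 95% interval of 0.831 to 1.19 in limma. ARG1, the liver arginase, was listed at 0 in all libraries, so ARG2 was the only listed source of arginase transcript here.

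ODC1, the rate-setting and short-lived enzyme of the route (chr2:10439968-10448504, reverse strand), had 84.38, 102.82 and 95.95 TPM without ArA and 95.59, 109.77 and 110.71 TPM with it. ArA replicates 2 and 3 were above all control libraries, while ArA replicate 1 fell inside the control range. The ratio of means, 1.12, was the highest of the 9 genes, with a log2 fold change of 0.16 (SE 0.11) and a 95% interval of 0.938- to 1.33-fold. ODC1 kept a positive sign in all 20 alternatives, from 0.07 to 0.29, as did OAZ1, from 0.019 to 0.16. The filters, the replicate block and the eBayes options leave a log2 fold change as it is, so their signs were fixed in advance. The highest ODC1 value came without control replicate 2 and ArA replicate 1 (adjusted p = 0.507 in limma), and the lowest adjusted p, 0.0839, with limma array weights.

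The aminopropyl donor is made by the next pair. MAT2A, which makes S-adenosylmethionine (chr2:85539165-85545280, forward strand), had 127.83, 108.07 and 133.97 TPM without ArA and 103.14, 122.37 and 122.65 TPM with it. Its lowest library was ArA replicate 1 and its next lowest control replicate 2, and the groups overlapped. The fold difference was 0.941 (95% interval 0.780 to 1.14 in limma), and MAT2A was the only 1 of the 9 with a negative sign in all 20 alternatives. As for ODC1, that sign was fixed in advance in the alternatives that leave a log2 fold change as it is. Its log2 fold change of -0.09 ranged from -0.18 without control replicate 2 to -0.0032 without ArA replicate 1. AMD1, which decarboxylates S-adenosylmethionine (chr6:110874770-110895713, forward strand), had 34.48, 20.2 and 33.37 TPM without ArA and 21.18, 32.39 and 34.18 TPM with it. A single library in each group was low, and the remaining 4 lay between 32.39 and 34.48 TPM. The group means were nearly equal, at 29.4 ± 7.94 and 29.3 ± 7.05 TPM (SD, n = 3 each), but the 95% interval of the fold, 0.663 to 1.52, was the widest of the 9 genes.

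The synthases follow. SRM, which makes spermidine, had 57.43, 73.07 and 65.4 TPM without ArA and 68.45, 68.45 and 62.44 TPM with it. Its highest and lowest libraries were both controls, so the ArA values lay wholly within the control range. SMS, which makes spermine (chrX:21940573-21994835, forward strand), had 112.24, 93.32 and 118.22 TPM without ArA and 89.39, 110.44 and 116.25 TPM with it. Control replicate 2 and ArA replicate 1 were again the lowest libraries for SMS, and the fold difference was 0.976 with a 95% interval of 0.783 to 1.22 in limma. SMS was above SRM in every library: the ratio of SRM to SMS was 0.512, 0.783 and 0.553 in control and 0.766, 0.620 and 0.537 in ArA libraries. This ratio does not depend on any single factor applied to a whole library, and its spread within each group was larger than the difference between the group means of 0.616 and 0.641.

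The antizymes and their inhibitor set how much ODC1 protein lasts. OAZ1 (chr19:2269509-2273490, forward strand) had 806.79, 949.63 and 905.59 TPM without ArA and 907.85, 976.26 and 935.45 TPM with it. Its lowest library was control replicate 1 and its highest ArA replicate 2, and the groups overlapped, with a fold difference of 1.06 (95% interval 0.925 to 1.22). OAZ2 (chr15:64687573-64703281, reverse strand) had 166.74, 201.05 and 173.48 TPM without ArA and 177.38, 190.93 and 190.67 TPM with it. The highest OAZ2 value was that of control replicate 2, and the fold difference was 1.03 (95% interval 0.888 to 1.21). AZIN1 (chr8:102826357-102893864, reverse strand) had 72.01, 58.83 and 70.1 TPM without ArA and 52.74, 69.17 and 77.75 TPM with it. The ArA libraries held both the lowest and the highest AZIN1 value, and the fold difference was 0.994 (95% interval 0.761 to 1.27).

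Set against OAZ1, the transcript of ODC1 was steady between control libraries, at ratios of 0.105, 0.108 and 0.106, and stood at 0.105, 0.112 and 0.118 in ArA libraries. ArA replicates 2 and 3 were above all controls, and ArA replicate 1 was between controls 1 and 3, so the groups overlapped. The ratio of AZIN1 to OAZ1 was 0.0892, 0.0620 and 0.0774 in control and 0.0581, 0.0709 and 0.0831 in ArA libraries, again with control replicate 2 and ArA replicate 1 lowest in their groups. The ratio of AMD1 to ODC1 ranged from 0.196 to 0.409 within the control group alone, wider than its range of 0.222 to 0.309 in ArA libraries. These ratios were not tested, and none separated the groups.

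By the split of libraries described above, 4 of the 9 genes were low in control replicate 2 and ArA replicate 1. AMD1, AZIN1, MAT2A and SMS had both of these libraries below all 4 others. This also held for 39.1% of all tested genes, close to 4 of 9, so it was not particular to the members. The mean TPM of these libraries relative to the other 4 was 0.616 for AMD1, 0.772 for AZIN1, 0.799 for SMS and 0.834 for MAT2A, against 1.12 for SRM. Over the 6 libraries, log2(TPM + 1) of AMD1 and SMS correlated at r = 0.966, MAT2A and SMS at r = 0.964 and OAZ1 and ODC1 at r = 0.925, while AMD1 and SRM stood at r = -0.747. These are descriptions over 6 libraries that all genes share, and shared control of the members was not tested. The 4 genes low in these libraries had the 4 lowest GC contents, 37.7% for AMD1 to 46.5% for SMS, and SRM the highest, 63.7%. Across the 9 genes, GC content correlated with the log2 difference of these 2 libraries from the other 4 at r = 0.841, and across 12637 tested genes at r = 0.55. The same 2 libraries were set apart above by their trend with GC content. A positive correlation over all genes was therefore fixed in advance and is not a separate result. After each library's trend with GC content had been removed, 0 of 9 members passed, 2 were positive, and the log2 fold change was 0.10 for ODC1 and -0.13 for MAT2A. Without control replicate 2 and ArA replicate 1, 0 of 9 passed and 6 were positive, with a median of 0.045 against 0.064 over all tested genes.

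**Figure D3:**
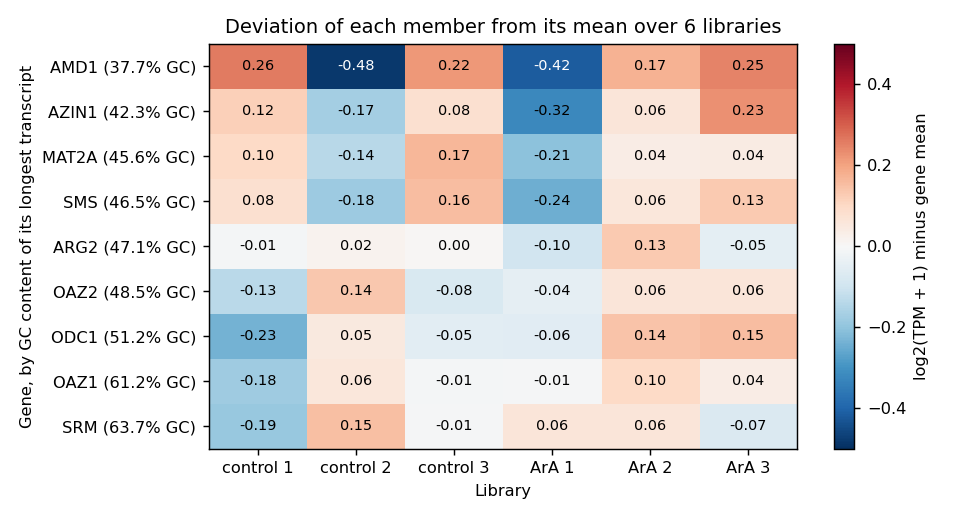
Deviation of log2(TPM + 1) from the gene's own mean in each library (columns), for the 9 tested genes (rows, ordered by GC content of the longest transcript, in percent). AMD1, AZIN1, MAT2A and SMS are negative in control replicate 2 and ArA replicate 1 and positive in the other 4 libraries; SRM is positive in control replicate 2 (0.15) and negative in control replicate 1 (-0.19).

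MTAP, the phosphorylase that cleaves methylthioadenosine, was listed at 0 TPM in 5 libraries and at 0.02 TPM in control replicate 3 and so fell under the filter of 1 TPM. Fitted with no filter on low values, it had an adjusted p of 0.996 in limma, and 0 of the 10 members passed. MTAP lies on chromosome 9 (chr9:21802543-21937651, forward strand), next to the tumor suppressor genes CDKN2A and CDKN2B, in a region that many tumors lose and in which MDA-MB-231 is known to lack CDKN2A. CDKN2A, CDKN2B, DMRTA1, ELAVL2, IFNB1, IFNE, KLHL9 and HACD4 were listed at 0 in all 6 libraries. The noncoding transcripts CDKN2B-AS1 and MIR31HG reached at most 0.04 and 0.03 TPM. FOCAD had 1.27, 0.13 and 1.05 TPM without ArA and 0.46, 0.3 and 1.26 TPM with it, and MLLT3 2.79 ± 0.792 and 2.29 ± 0.555 TPM (SD, n = 3 each). An exact 0 in a TPM table can be a failed estimate, and copy number was not measured here.

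The low stretch around MTAP was also read gene by gene, in a window of 5 Mb on either side that was chosen after the values had been seen. The window held 40 protein-coding genes of GENCODE v29, 9 of them with a mean of at least 1 TPM. From FOCAD to IZUMO3, 26 protein-coding genes in a row, over 3887.6 kb (chr9:20658309-24545946), had means under 1 TPM, and 24 of these were listed at 0 in all libraries, the exceptions being FOCAD and MTAP itself. Of the 26, 16 were interferon genes, which are silent in most resting cells, and 42.4% of all annotated protein-coding genes of the table had a mean under 1 TPM. That share goes with the count of 26. The share of protein-coding genes listed at 0 in all libraries was not taken, so the count of 24 has no such figure beside it. The first genes past the stretch with at least 1 TPM were MLLT3 on one side and TUSC1 on the other, the latter at 2.48 to 4.89 TPM. PLIN2, the lipid droplet coat gene farther out on the same arm, rose 1.89-fold, with a log2 fold change of 0.91 (SE 0.08, limma adjusted p = 0.0331). Its log2 fold change was 0.84 to 0.97 in 20 alternatives, but it passed in only 10 of them. The call was lost with the replicate block (limma adjusted p = 0.641) and with the replicate block after GC correction (0.200). With GC correction alone it was kept (limma adjusted p = 0.009995). The other losses came with eBayes without trend (0.225), median of ratios (0.215) and no filter on low values (0.0724). Leaving out control replicate 1 or 3 or any 1 of the ArA libraries also lost it (0.0511 to 0.476).

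**Figure D4:**
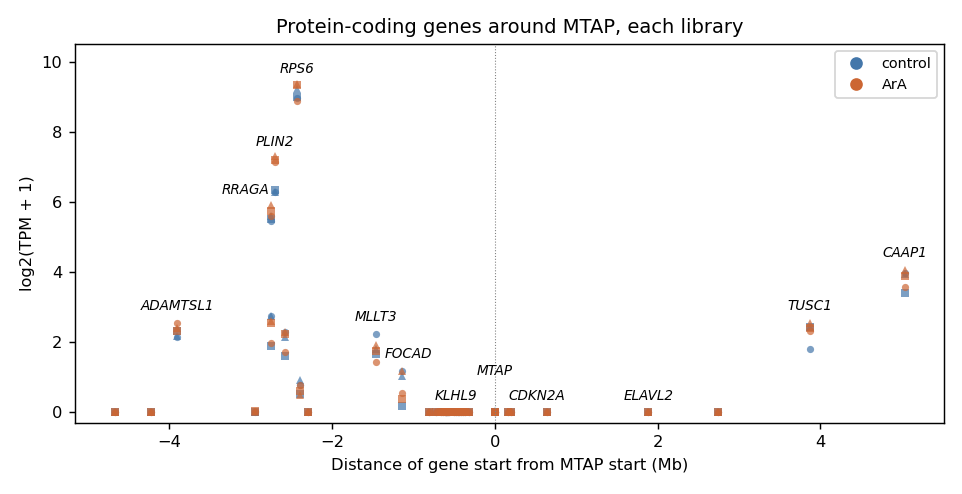
log2(TPM + 1) of protein-coding genes in each of 3 control (blue) and 3 ArA (orange) libraries against the distance of the gene's start from the MTAP start, in Mb. FOCAD lies between 0.13 and 1.27 TPM, and from HACD4 to the gene before TUSC1 the points lie at or near 0 in all 6 libraries. To the left, RPS6, PLIN2 and RRAGA are well above it. Also to the left, outside the stretch, CNTLN, SH3GL2 and SLC24A2 lie at 0 in all 6 libraries. SAXO1 reaches at most 0.02 TPM and ACER2 at most 0.89 TPM there.

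Enzymes of methionine salvage after MTAP were transcribed. Of 9 listed rows (8 genes, KYAT1 having 2 identifiers), 7 were tested, 3 with a positive and 4 with a negative log2 fold change, and 0 passed; the median was -0.03. Under the 3 other scalings 1, 2 and 1 of the 7 were positive. GOT2 and GOT1, aminotransferases that can act at the last step among other roles, had 151 ± 16.8 and 73.7 ± 7.11 TPM without ArA and 147 ± 2.66 and 71.8 ± 2.15 TPM with it (SD, n = 3 each). MRI1, the next enzyme after MTAP, had 8.87 ± 1.32 and 8.27 ± 0.680 TPM. In the methionine cycle, 7 of 8 tested genes of 13 were positive under the deposited scaling, beside 68.9% of all tested genes, and 0 passed. With median of ratios, quantiles or no mitochondrially encoded genes, 5, 5 and 4 of the 8 were positive, beside 53.2, 51.7 and 49.3% of all tested genes. AHCY, which clears S-adenosylhomocysteine, had 110.4 ± 11.1 and 113.5 ± 2.13 TPM, and AHCYL1 65.8 ± 3.48 and 71.4 ± 7.74 TPM. MAT2B, the regulatory partner of MAT2A, had 58.2 ± 7.06 and 59.7 ± 9.77 TPM.

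Methylthioadenosine inhibits the arginine methyltransferase PRMT5, which has made PRMT5 and MAT2A known weak points of cells without MTAP. PRMT5 had 178.97, 245.98 and 215.97 TPM without ArA and 180.4, 200.58 and 177.03 TPM with it. Its highest libraries were control replicates 2 and 3, the groups overlapped, and the log2 fold change was -0.19 (SE 0.13, limma adjusted p = 0.999). The other 3 genes of the PRMT5 complex list were positive and 0 of 4 passed, and 3 of the 4 were also positive under each of the 3 other scalings; WDR77, the binding partner of PRMT5, had 52.5 ± 4.83 and 55.6 ± 3.70 TPM.

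Other genes of arginine and ornithine handling gave 0 calls as well. Of 18 listed, 11 were tested, 8 positive and 3 negative, with a median of 0.055 against 0.056 over all tested genes. With median of ratios, quantiles or no mitochondrially encoded genes, 6, 5 and 5 of the 11 were positive, with medians of 0.0023, -0.021 and -0.0097. OAT, which turns ornithine toward proline and glutamate, had 87.3 ± 13.7 TPM without ArA and 89.4 ± 15.0 TPM with it, and ALDH18A1, which feeds ornithine and proline synthesis from glutamate, 86.1 ± 7.26 and 89.4 ± 5.95 TPM (SD, n = 3 each). A single gene of this list had groups that did not overlap, named for that reason after its values were seen: AZIN2, the other antizyme inhibitor, with 4.14, 4.85 and 4.13 TPM without ArA and 4.03, 3.97 and 3.98 TPM with it (limma adjusted p = 0.999). Non-overlap with lower ArA values held for 1.21% of tested genes. The testis antizyme OAZ3 had at most 1.37 TPM and was under the filter.

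Among genes of polyamine breakdown, transport and hypusine formation, 0 passed. A positive log2 fold change was found for 11 of 12 tested genes under the deposited scaling, beside 68.9% of all tested genes. Under the other 3 scalings it was found for 7 to 9 of 12, beside 49.3 to 53.2% of all tested genes. EIF5A, the translation factor whose hypusine residue is made from spermidine, had 929 ± 104 TPM without ArA and 964 ± 9.54 TPM with it, close to the level of OAZ1. SLC3A2, the heavy chain of amino acid carriers also linked to polyamine transport, had 268 ± 30.9 and 300.2 ± 18.6 TPM (SD, n = 3 each).

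All 8 tested genes of the MYC network had positive log2 fold changes, under the deposited and each of the 3 other scalings, and 0 passed. Of all tested genes, 68.9% were positive under the deposited scaling and 49.3 to 53.2% under the others. The list also holds genes that oppose MYC, namely MXD1, MXD4, MNT, MXI1 and MGA, at 0.07 to 0.16. A sign shared by the list is therefore no measure of MYC activity. MYC itself had 41.74, 43.75 and 44.14 TPM without ArA and 47.4, 50.39 and 51.44 TPM with it. Every ArA value was above every control value, which held for 6.84% of tested genes, and the log2 fold change was 0.20 (SE 0.08, limma unadjusted p = 0.0478, adjusted p = 0.999). MYC was named here after its values were seen. Its targets with the E-box shown above stood at 0.16 (ODC1) and 0.03 (SRM) in the same fit, with SRM turning negative under each of the 3 other scalings. MAX, the partner of MYC, had 76.6 ± 21.8 and 79.9 ± 6.67 TPM, and MLX, a MAX-like protein of the extended network, 52.1 ± 3.58 and 54.9 ± 2.36 TPM (SD, n = 3 each).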

How the data were processed

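The 6 libraries are described by a single deposited table of TPM values, 1 column per library, matched to samples by title. Per the submitters' processing notes, HISAT2, StringTie, RSEM and hg38 were used, without versions; neither the annotation nor any use of strand is given there. Of 63291 lines, 50 name no gene and were left out. Genes averaging 1 TPM or more over the libraries were tested on log2(TPM + 1), a scale that understates changes of low genes, with limma 3.58.1 in R 4.3.3 (trended eBayes, 2-sided, group only), with Benjamini-Hochberg adjustment across all tested genes and a threshold of 0.05. The fit was tested on simulated data, with noise drawn independently for each gene and library and with changes larger than those of the members. The simulation held no trend with GC content shared by genes of a library, so it does not cover that feature of these data. Fold differences are ratios of mean TPM; their 95% intervals come from the limma fit on log2(TPM + 1). Members, gene lists and tests were chosen with earlier results of these data known. Named were all members, the 2 most abundant tested genes of each list and any past the threshold; other names were chosen after their values were seen. Coordinates, transcript length and GC content (longest transcript) come from GENCODE v29; 97.2% of tested genes had GC. Alternatives covered scaling, pseudocounts of 0.1 and 5, filters, the replicate block, eBayes options, array weights, GC correction (spline with 5 degrees of freedom) and left-out libraries.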

Additional observations from a re-analysis of the deposited data

How the results depend on the processing

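Over 20 alternatives, 0 of 180 member values passed an adjusted p of 0.05, and 32 changed sign. The 180 include values from the filters, the replicate block and the eBayes options, which cannot change the sign of a log2 fold change. With array weights, 3 of 9 members (ODC1, OAZ1 and OAZ2) had an unadjusted p under 0.05 in limma, beside 3189 of 12999 genes. Without both control replicate 2 and ArA replicate 1, 2 of 9 (ODC1 and OAZ2) did, beside 1255 of 12999. Genes past the threshold numbered 3 in all; 0 with the replicate block (232 at an unadjusted p under 0.05 in limma), 214 with array weights, 5 after GC correction and 12 without both control replicate 2 and ArA replicate 1. Leaving out single libraries gave 0 to 7: 0 without control replicate 1 or ArA replicate 2 (413 and 228 at an unadjusted p under 0.05 in limma), 7 without control replicate 2 or ArA replicate 1. Whether same-numbered libraries were paired is not stated. Their deviations from the group means correlated at -0.156, -0.28 and 0.109, and those of control replicate 2 and ArA replicate 1 at 0.285. These deviations still hold each library's trend with GC content, so the coefficients cannot settle pairing. The block changed no member's call. Median of ratios, quantile normalization and scaling without mitochondrially encoded genes gave log2 fold changes of -0.022, -0.031 and -0.034 for SRM, -0.048, -0.066 and -0.060 for AMD1 and -0.0028, -0.0070 and -0.015 for OAZ2. GC correction, with or without the replicate block, gave -0.030 for SRM, -0.015 for AMD1 and -0.0018 for OAZ2. Array weights gave -0.023 for AMD1 and 0.10 for ARG2. Without both control replicate 2 and ArA replicate 1 the values were -0.027 for AMD1, 0.045 for AZIN1, 0.044 for ARG2 and 0.165 for OAZ2. Leaving out 1 library at a time, log2 fold changes ranged from -0.058 to 0.11 for SRM, -0.14 to 0.077 for SMS, -0.24 to 0.21 for AMD1, -0.0042 to 0.13 for OAZ2, 0.019 to 0.14 for OAZ1, 0.081 to 0.23 for ODC1, -0.18 to -0.0032 for MAT2A, -0.14 to 0.13 for AZIN1 and -0.076 to 0.038 for ARG2. The cause of these shifts was not tested. TPM holds no counts, so the depth that limits low genes such as FOCAD is unknown.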

Other observations

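By the rule of the highest Pearson correlation with SRM in log2(TPM + 1) over the 6 libraries, the genes most like SRM among those tested were MAP7D1 (r = 0.998), HECTD3 (r = 0.997) and PEA15 (r = 0.994). MAP7D1 had 55.48, 76.34 and 66.14 TPM without ArA and 69.25, 69.15 and 62.13 TPM with it, close to SRM library by library. All 3, like SRM, had control replicate 1 lowest and control replicate 2 highest, which follows from the rule that picked them and is not a separate result. The transcripts of MAP7D1 and HECTD3 had GC contents of 66.6% and 58.6%, above the median of 48.3% over tested genes, and that of PEA15 51.4%. With 6 libraries and 12999 genes such coefficients are descriptions only.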
